A study of Mus musculus with 32 samples.

Results

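The levels of 36 interferon response genes were followed in bone and gingiva of mice with a ligature, an overloaded tooth, or both. The members are the 36 genes of a chosen list, matched by Ensembl identifier, out of 55359 genes in each deposited count table. All of them passed the filter on low counts in both tissues. The mice were male wild-type C57BL/6J, an inbred strain, 9 weeks old. Control mice (Co) were untreated. The ligature group (Li) carried a 6-0 silk ligature on the upper left second molar, a thread that lets plaque gather and inflames the gum. In the trauma group (Tra) the chewing surface of that tooth was raised with composite resin, so that it met the opposing tooth too early. The combined group (LiTra) had both. Each group had 4 libraries of poly(A) RNA per tissue, 32 in all. Neither the time between treatment and sampling nor the number of animals behind a library was given in the labels. P-values therefore measure the spread between these libraries, which may be technical.

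Interferons are secreted proteins, of which those of type I are released by cells on sensing foreign or misplaced nucleic acid. Type I interferons act through the receptor chains Ifnar1 and Ifnar2, and interferon gamma through Ifngr1 and Ifngr2. Both receptors work through Janus kinases. Type I interferon signals reach promoters through a complex that holds Stat2 and Irf9 and binds an element built around repeats of GAAA. Interferon gamma also acts through an element with TTC on the left and GAA on the right. The genes switched on in this way encode nucleic acid sensors, antiviral effectors, GTPases that attack intracellular microbes, and chemokines that attract T cells. Many of them are also kept on at a low level without infection.

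By role, the members comprised 4 sensors of nucleic acid (Ifih1, Ddx58, Dhx58 and Zbp1), 4 transcription factors (Irf1, Irf7, Irf9 and Stat2), Isg15 with its protease Usp18, and 8 IFIT and OAS genes (Ifit1, Ifit2, Ifit3, Oas1a, Oas2, Oas3, Oasl1 and Oasl2). A group of 11 other antiviral effectors held Rsad2, Cmpk2, Mx1, Mx2, Ifi44, Ifi27l2a, Xaf1, Parp14, Rtp4, Bst2 and Trim30a. The remaining members were 5 interferon-induced GTPases (Gbp2, Gbp3, Igtp, Irgm1 and Iigp1) and the chemokines Cxcl9 and Cxcl10.

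The promoters of 6 genes are shown because these genes changed in the comparisons that follow: Rsad2, Cmpk2, Isg15 and Oas3 fell in bone, and Irf1 and Trim30a rose in gingiva. Each line gives the 250 bases before the start site, 5′ to 3′ on the strand of the gene, from RefSeq on build GRCm38.p6. Capitals mark matches to GAAANNGAAA, read on either strand and therefore also seen as TTTCNNTTTC, or to TTCNNNGAA, which reads the same on both strands.
Rsad2: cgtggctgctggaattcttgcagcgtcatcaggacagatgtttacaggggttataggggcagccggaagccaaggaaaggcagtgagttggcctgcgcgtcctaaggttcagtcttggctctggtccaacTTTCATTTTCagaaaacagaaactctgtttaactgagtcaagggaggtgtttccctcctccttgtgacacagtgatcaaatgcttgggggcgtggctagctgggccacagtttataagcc
Cmpk2: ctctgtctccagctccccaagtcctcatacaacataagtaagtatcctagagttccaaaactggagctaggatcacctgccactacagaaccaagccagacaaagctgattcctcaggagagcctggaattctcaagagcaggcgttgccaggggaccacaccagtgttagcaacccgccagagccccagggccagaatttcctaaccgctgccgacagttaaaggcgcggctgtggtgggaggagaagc
Isg15: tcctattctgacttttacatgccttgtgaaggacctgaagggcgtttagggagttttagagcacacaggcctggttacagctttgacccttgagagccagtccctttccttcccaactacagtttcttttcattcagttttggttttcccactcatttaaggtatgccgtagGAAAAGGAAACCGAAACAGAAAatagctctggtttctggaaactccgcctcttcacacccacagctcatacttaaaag
Oas3: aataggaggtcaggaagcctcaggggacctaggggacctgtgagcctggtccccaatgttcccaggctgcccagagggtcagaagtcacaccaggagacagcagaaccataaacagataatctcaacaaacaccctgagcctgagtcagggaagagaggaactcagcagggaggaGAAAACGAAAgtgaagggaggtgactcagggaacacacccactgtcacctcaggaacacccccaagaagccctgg
Irf1: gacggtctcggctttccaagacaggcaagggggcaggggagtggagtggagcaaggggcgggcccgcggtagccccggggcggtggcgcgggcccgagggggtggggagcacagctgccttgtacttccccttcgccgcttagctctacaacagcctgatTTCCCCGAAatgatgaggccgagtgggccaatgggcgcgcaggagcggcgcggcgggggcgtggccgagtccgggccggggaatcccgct
Trim30a: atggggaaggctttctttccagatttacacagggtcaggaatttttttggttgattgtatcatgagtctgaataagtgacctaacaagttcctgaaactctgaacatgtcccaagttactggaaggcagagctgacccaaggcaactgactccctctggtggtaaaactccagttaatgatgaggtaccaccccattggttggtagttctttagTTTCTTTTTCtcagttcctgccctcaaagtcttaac
The windows lie at chr12:26456453-26456702, minus strand (Rsad2), chr12:26468965-26469214, plus strand (Cmpk2), chr4:156200819-156201068, minus strand (Isg15), chr5:120777660-120777909, minus strand (Oas3), chr11:53769764-53770013, plus strand (Irf1) and chr7:104465194-104465443, minus strand (Trim30a). For Irf1 and Trim30a the first of 2 start sites in the table is shown. Rsad2 and Cmpk2 are neighbours on chromosome 12 with 0 annotated genes between them, and they are read in opposite directions. The Rsad2 window held 1 match to GAAANNGAAA, and the Cmpk2 window held 0. Isg15 held 3 overlapping matches between 78 and 57 bases before its start site. Irf1 held no match to GAAANNGAAA and 1 match to TTCNNNGAA, 90 to 82 bases before the start.

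Of the 36 members, 26 were matched in the RefSeq promoter table. GAAANNGAAA was found in 14 of these 26 genes (53.8%) and in 3.46% of the 27025 genes of the table. TTCNNNGAA was found in 5 of the 26 genes (19.2%) and in 8.13% of all genes. The matches to both motifs overlapped in Bst2. Among the 6 matched members that fell in bone with the combined treatment, Stat2, Isg15, Oas3 and Rsad2 had a match to GAAANNGAAA, and Irf7 and Cmpk2 had none in this window.

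The depth was 38163979 to 70793037 counts a library in bone and 36913075 to 50740393 in gingiva. Bone libraries held osteoblast and osteocyte markers at a summed level of 2631 to 8140 CPM (read counts scaled to library size), against 144 to 390 CPM in gingiva. Gingiva libraries held oral epithelial keratins at 45038 to 105656 CPM, against 17.1 to 7287 CPM in bone. In 6 of 16 bone libraries nasal gland transcripts took over 5% of the counts, LiTra 1 (49.4%), Co 3 (46.4%), Li 2 (23.9%), Co 4 (14.6%), Tra 3 (14.4%) and Tra 1 (6.95%). The 10 most abundant genes took 51.1% to 62.9% of the counts in Co 3, Tra 3 and LiTra 1 and at most 29.3% in the other 13 libraries, so the counts of called members in bone are also given without these 3, a setting that keeps Li 2 and Co 4. The highest share of nasal gland transcripts in gingiva was 1.15%. These are bulk samples, in which fewer cells of a type and less RNA per cell cannot be told apart.

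Few transcripts of the interferon genes that were looked up were counted. Of the alpha interferon genes only Ifna2 and Ifna4 were listed, and others were not examined. Of 8 ligand genes listed, Ifna2, Ifna4, Ifnk and Ifnl3 had 0 counts in all 32 libraries, where 3 counts would correspond to at most 0.0813 CPM. Ifnb1 was counted in 2 libraries, at most 6 times, Ifne in 4 and Ifnl2 in 1, at most 4 times each. Ifng, which encodes interferon gamma, was counted in 9 of 16 bone libraries, at most 11 times, and in 5 of 16 gingiva libraries, at most 10 times. None of the 8 passed the filter in either tissue, so no ligand was tested.

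In bone, some of the antiviral genes were lower with the combined treatment. Against untreated bone, 7 of 36 members fell and 0 rose (edgeR quasi-likelihood test, Benjamini-Hochberg adjusted p under 0.05 over 21205 genes). Of all genes, 8.64% were called lower and 8.29% higher in this comparison. The members that fell were Rsad2, Oas3, Cmpk2, Isg15, Irf7, Dhx58 and Stat2. The median over the 36 members was -0.26 on the log2 scale, against -0.01 over all genes, and 28 of 36 had a negative difference. In 12 members every LiTra library lay below every Co library, where 13.9% of all genes did so, and in 1, Oas2, every LiTra library lay above, where 11.9% did so.

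No member was called in bone with either treatment alone. The ligature gave 0 calls among the 36 (background 2.66% higher and 0.849% lower), with 3 members at an unadjusted p under 0.05, and DESeq2 and limma-voom also called 0. Overload alone gave 0 calls among the members and among all genes (0% in both directions), with 1 member at an unadjusted p under 0.05 and 0 calls by either other tool. The combined treatment against overload alone gave 4 lower and 0 higher (background 2.49% and 3.07%), namely Rsad2, Oas3, Cmpk2 and Isg15. Against the ligature alone, 35 of 36 members had a negative difference, with a median of -0.39 against 0.00 over all genes. No gene at all was called in that comparison by edgeR (0% in both directions), 8 members had an unadjusted p under 0.05, and DESeq2 called 1 member. The interaction (the effect of the ligature in overloaded mice minus its effect in mice without overload) was negative in 34 of 36 members, with a median of -0.55 against -0.03 over all genes, and no gene was called (0% in both directions), with 6 members at an unadjusted p under 0.05 and 0 members called by DESeq2 or limma-voom. These comparisons share groups, so their values are not independent of each other. Among the Li libraries of bone, Li 2 held the highest value for 33 of 36 members. The mean over the members of log2 CPM, centred on each gene's mean, was 0.71 in Li 2. It was -0.12 in Li 1, -0.08 in Li 3 and 0.03 in Li 4. Li 2 enters both the comparison with the ligature alone and the interaction. In each of 16 fits that left out 1 library, Li 2 among them, 0 members were called in either comparison. How far the negative medians rested on Li 2 is not reported here.

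**Figure D1:**
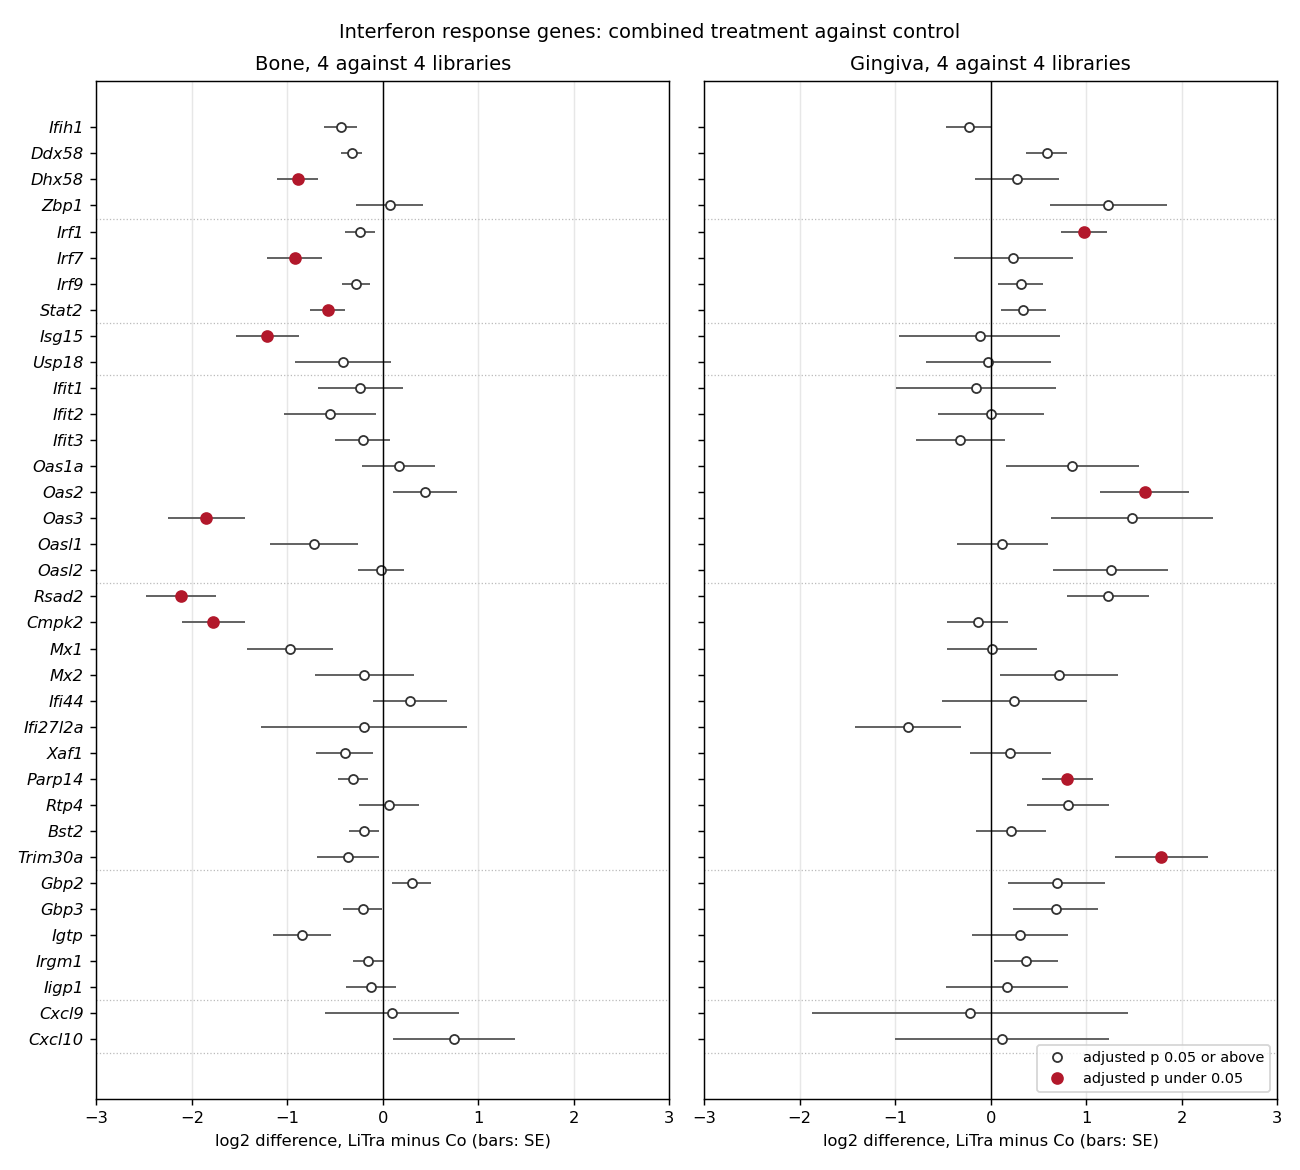
Log2 difference between LiTra and Co for each of the 36 members (rows, grouped by role with dotted lines) in bone (left) and gingiva (right); points are edgeR estimates, bars their standard error, and filled points have an adjusted p under 0.05. In bone 7 filled points lie left of 0, and in gingiva 4 filled points lie right of 0.

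Rsad2 and Cmpk2 had the lowest adjusted p of the members in LiTra bone. Rsad2 encodes viperin, a radical SAM enzyme that makes a chain-terminating nucleotide, and Cmpk2 a mitochondrial kinase that phosphorylates the precursors of nucleotides. Rsad2 CPM was 70.3, 54.2, 52.4 and 90.9 in Co, 30.7, 48.9, 47.9 and 32.7 in Li, 74.3, 93.3, 43.1 and 126 in Tra and 26.5, 15.3, 8.95 and 11.2 in LiTra. The 4 LiTra libraries were the lowest of all 16, and Tra 4 the highest. Rsad2 fell by 2.11 ± 0.36 (adjusted p = 0.00153) against Co and by 2.44 ± 0.37 (adjusted p = 0.00295) against Tra on the log2 scale, both by edgeR. Cmpk2 CPM was 24.4, 25.5, 25.3 and 31.5 in Co, 16.3, 23.6, 13.8 and 9.79 in Li, 25.0, 22.2, 9.499 and 30.2 in Tra and 9.12, 5.09, 10.1 and 6.86 in LiTra. Its LiTra libraries lay below all Co libraries, but Tra 3 and Li 4 reached as low. Cmpk2 fell by 1.78 ± 0.33 against Co (edgeR adjusted p = 0.00256) and by 1.48 ± 0.33 against Tra (adjusted p = 0.018). With the ligature alone the differences of Rsad2 (-0.74 ± 0.35, adjusted p = 0.296) and Cmpk2 (-0.75 ± 0.32, adjusted p = 0.25) were not called by edgeR. In both genes every Li library lay below every Co library. Of the 36 members 2 lay lower without overlap in this comparison, and 0 lay higher. The share of all genes that did so was not computed, so the lack of overlap is given as a description only.

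Among the IFIT and OAS genes, which encode proteins that bind foreign RNA or make the second messenger of RNase L, 1 of 8, Oas3, fell in bone; whether Oas3 differed from its relatives was not tested. Oas3 CPM was 19.5, 18.2, 17.4 and 26.3 in Co, 11.4, 19.7, 12.3 and 5.66 in Li, 19.1, 22.1, 6.29 and 24.9 in Tra and 7.60, 4.08, 4.96 and 6.01 in LiTra. LiTra and Co did not overlap, and Tra 3 and Li 4 lay within the LiTra range. The difference from Co was -1.85 ± 0.40, adjusted p = 0.00652 and that from Tra -1.68 ± 0.40, adjusted p = 0.0247, both by edgeR. The other 7 ranged from -0.72 (Oasl1) to 0.44 (Oas2) against Co. Oas2 CPM was 6.09, 6.43, 7.41 and 7.24 in Co and 8.51, 7.64, 10.5 and 10.2 in LiTra, higher in every LiTra library, but its difference was not called (0.44 ± 0.33, adjusted p = 0.436). Ifit2 stood apart in 1 library: it had 37 counts in bone LiTra 1, against 727 to 777 in the other 3 LiTra libraries.

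Isg15, a ubiquitin-like protein that is attached to other proteins, fell, and the value of its protease Usp18 rested on LiTra 1. Isg15 CPM was 12.7, 8.68, 8.63 and 19.6 in Co, 8.18, 15.97, 12.1 and 9.33 in Li, 13.9, 16.8, 8.95 and 24.1 in Tra and 6.25, 6.42, 4.20 and 4.60 in LiTra. All LiTra libraries lay below the 12 others. The difference was -1.21 ± 0.33, adjusted p = 0.0224 against Co and -1.57 ± 0.33, adjusted p = 0.014 against Tra (edgeR). Usp18 CPM was 4.15, 3.78, 2.85 and 5.48 in Co and 7.13, 1.91, 1.93 and 1.24 in LiTra, where LiTra 1, the library with the most nasal gland transcripts, lay above Co and the other 3 below it. The difference was -0.42 ± 0.50, adjusted p = 0.653 (edgeR). Without LiTra 1 it was -1.26 ± 0.40, adjusted p = 0.0503, against Co and -1.71 ± 0.41, adjusted p = 0.0276, against Tra. It fell against Co when Tra 3 and Co 3 were left out as well (-1.41 ± 0.41, adjusted p = 0.0295) and by limma-voom on all libraries (-1.17 ± 0.38, adjusted p = 0.0265).

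Of the 4 transcription factors, Irf7 and Stat2 fell in bone and Irf1 and Irf9 were not called. Irf7 amplifies type I interferon production and is itself induced by interferon. Irf7 CPM was 18.9, 15.4, 16.1 and 24.5 in Co, 12.01, 25.0, 14.3 and 12.7 in Li, 15.8, 15.4, 9.82 and 25.2 in Tra and 12.2, 8.35, 10.1 and 8.89 in LiTra, and its difference from Co was -0.93 ± 0.28, adjusted p = 0.0382 (edgeR). Stat2 CPM was 37.6, 36.8, 41.9 and 49.7 in Co and 34.2, 22.3, 27.2 and 27.5 in LiTra, a difference of -0.58 ± 0.18, adjusted p = 0.0406. In both genes LiTra lay below Co without overlap. Irf1, which responds mainly to interferon gamma and inflammatory signals, had 41.0, 38.6, 40.7 and 41.4 CPM in Co, 53.8, 35.1, 35.4 and 32.5 in Li, 31.2, 35.9, 26.5 and 39.98 in Tra and 30.3, 38.1, 34.0 and 34.6 in LiTra. Its values in LiTra all lay below those in Co, but by little, and the difference of -0.24 ± 0.15 was not called (adjusted p = 0.339).

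Of the 4 sensors, Dhx58 fell. It encodes LGP2, a regulator of the RNA sensors RIG-I (Ddx58) and MDA5 (Ifih1). Dhx58 CPM was 11.4, 11.2, 7.03 and 11.2 in Co, 8.63, 10.8, 7.48 and 6.29 in Li, 8.35, 8.23, 5.23 and 8.62 in Tra and 6.11, 4.64, 5.51 and 5.74 in LiTra. Every LiTra library lay below every Co library, of which Co 3 was the lowest. The difference was -0.89 ± 0.22, adjusted p = 0.012 (edgeR). Ddx58 CPM was 30.6, 34.8, 36.2 and 35.7 in Co and 28.9, 26.3, 26.8 and 27.5 in LiTra, without overlap, but the difference of -0.33 ± 0.11 missed the threshold (adjusted p = 0.0529). Ifih1 (-0.44 ± 0.17) and Zbp1 (0.07 ± 0.35), a sensor of Z-form nucleic acid, were not called.

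None of the 5 interferon-induced GTPases and neither chemokine was called in bone. Igtp, a GTPase that acts on vacuoles holding parasites, had 22.9, 26.0, 17.4 and 23.5 CPM in Co, 26.2, 28.1, 12.98 and 11.4 in Li, 24.0, 24.2, 11.7 and 24.6 in Tra and 13.7, 9.09, 12.9 and 14.2 in LiTra, a difference of -0.85 ± 0.30, adjusted p = 0.0689 between LiTra and Co. The other 4 GTPases lay between -0.21 (Gbp3) and 0.30 (Gbp2). Cxcl9 CPM was 0.852, 0.902, 1.18 and 1.39 in Co, 2.16, 2.57, 1.11 and 4.67 in Li, 0.735, 4.34, 2.02 and 1.20 in Tra and 2.84, 0.252, 0.41 and 1.17 in LiTra. Cxcl10 CPM was 0.373, 1.30, 0.889 and 1.90 in Co, 1.5, 3.93, 2.21 and 1.62 in Li, 0.802, 1.97, 1.06 and 3.99 in Tra and 3.38, 2.21, 1.37 and 0.513 in LiTra. Both encode ligands of Cxcr3, the receptor on activated T cells, and the groups overlapped in both. The remaining 9 antiviral effectors ranged from -0.98 ± 0.45 (Mx1) to 0.28 ± 0.39 (Ifi44) against Co, and 0 of them were called.

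Ifi27l2a, a small mitochondrial membrane protein, differed widely between bone libraries of the same group, in all groups. It had 7.07, 9.17, 61.4 and 15.1 CPM in Co, 6.07, 38.3, 10.3 and 20.9 in Li, 13.3, 12.4, 260.4 and 11.4 in Tra and 50.6, 9.08, 7.03 and 14.2 in LiTra. The high libraries were Co 3, Li 2, Tra 3 and LiTra 1, in which nasal gland transcripts took 46.4%, 23.9%, 14.4% and 49.4% of the counts. In the other 12 bone libraries this share was at most 14.6%, in Co 4, where Ifi27l2a was at 15.1 CPM. The part of these transcripts in the value was not tested.

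Scaling and single libraries bore on these calls. With library totals in place of TMM scaling, 0 members were called in LiTra against Co and 0 against Tra, and 12 genes in all were called in the first comparison. Rsad2 then had an adjusted p of 0.0759. Without Co 3, Tra 3 and LiTra 1 together, 10 members fell against Co and 8 against Tra. Limma-voom with quality weights, on all libraries, called 14 and 9 members lower. Rsad2, Cmpk2, Oas3 and Dhx58 kept their call against Co in each of 16 fits that left out 1 library. Isg15 lost it without Co 4, LiTra 3 or LiTra 4. Irf7 lost it in 6 fits (Co 1, Co 4, LiTra 2, LiTra 3, LiTra 4 or Tra 1 left out) and Stat2 in 8 (any Co library, Li 1, LiTra 2, LiTra 3 or LiTra 4). Against Tra, Rsad2 kept its call in all 16, Cmpk2 lost it without LiTra 2, LiTra 4 or Tra 4, Isg15 without LiTra 4 or Tra 4, and Oas3 without LiTra 2, LiTra 3, LiTra 4, Tra 1, Tra 2 or Tra 4.

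Cell type markers also moved in LiTra bone, blood cell markers mostly down and osteoclast markers up. All 5 erythroid markers fell, from a summed 13966 to 27917 CPM in Co to 1074 to 3634 CPM in LiTra. All 5 B cell markers fell, from 211 to 323 CPM to 25.1 to 52.9 CPM. Of 10 T and NK cell markers 7 fell, from 42.3 to 63.8 CPM to 14.0 to 22.3 CPM, and of 4 markers of plasmacytoid dendritic cells, the main makers of type I interferon in blood, 2 fell, from 39.0 to 47.3 CPM to 15.2 to 20.1 CPM. Of 6 neutrophil markers 1 fell, with sums of 6095 to 7876 CPM in Co and 1267 to 4067 CPM in LiTra, and of 8 monocyte and macrophage markers 3 rose, with sums of 529 to 866 CPM and 695 to 982 CPM. Of 4 osteoclast markers 3 rose, from 2347 to 4543 CPM to 5605 to 9622 CPM. Of 4 endothelial markers 2 rose (172 to 235 CPM in Co and 229 to 376 CPM in LiTra) and of 4 fibroblast markers 1 rose (4249 to 12074 CPM and 9846 to 17657 CPM). Of 5 osteoblast and osteocyte markers 1 rose and 1 fell, with sums of 2631 to 5055 CPM and 4845 to 8140 CPM. No marker of these 10 lists was at 0 in any Co or LiTra bone library. In Li bone, where 0 members were called, several lists had moved too: all 5 B cell markers fell, to 30.7 to 122 CPM, and 2 of 4 osteoclast markers rose, to 5662 to 8058 CPM. The erythroid sum (4189 to 12088 CPM) and that of plasmacytoid dendritic cells (21.1 to 34.8 CPM) lay below Co there without overlap, with 0 of 5 and 0 of 4 markers called. The part of these cell types in the decreases was not tested.

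Around the members, genes of the same pathway changed in both directions in LiTra bone, where 8.29% of all genes were called higher and 8.64% lower. Of 6 receptor chains, Ifngr2 rose (0.59 ± 0.18) and Ifnlr1, the receptor of type III interferon, fell (-1.29 ± 0.27). Of 10 genes that relay or restrain the signal, Socs3, an inhibitor of Janus kinases, rose (1.96 ± 0.26), while Irf8 (-1.91 ± 0.40), Irf2 (-0.61 ± 0.14) and Irf5 (-1.29 ± 0.30) fell. Of 12 sensing genes, Tlr9 (-1.76 ± 0.43), Aim2 (-1.20 ± 0.32) and Mavs (-0.41 ± 0.10) fell and Tlr3 (0.53 ± 0.17) rose. Of 32 other interferon-stimulated genes tested, 9 fell and 3 rose, with Isg20 (-2.30 ± 0.32), Ube2l6 (-2.10 ± 0.34), which loads Isg15, Sp100 (-1.52 ± 0.26) and Pml (-1.05 ± 0.18) of lowest p. Of 11 genes of class I antigen presentation 4 fell, H2-T23 (-0.82 ± 0.11), Tap2 (-0.85 ± 0.20), H2-K1 (-0.46 ± 0.13) and Tap1 (-0.77 ± 0.24), and 0 rose. In Li bone only Socs3 (1.62 ± 0.26) and Ifitm3 (0.88 ± 0.20) rose and H2-T23 (-0.52 ± 0.11) fell among the 71 genes of these lists that were tested, where 2.66% of all genes were called higher and 0.849% lower.

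In gingiva a few members were higher with the combined treatment. Against untreated gingiva 4 of 36 rose and 0 fell, while 11.4% of all 20143 genes were called higher and 11.5% lower (edgeR). The 4 were Irf1, Oas2, Parp14 and Trim30a, a share near that of all genes. The median over the 36 was 0.29 against -0.01 over all genes, and 28 of 36 differences were positive. In 5 members every LiTra library lay above every Co library, against 14.5% of all genes, and in 0 every one lay below, against 14% of all genes. Against overload alone 3 rose, Irf1, Parp14 and Trim30a, and 0 fell, where 9.36% of all genes rose and 9.44% fell. With the ligature alone 1 member rose, Rsad2, and 0 fell, where 5.19% of all genes rose and 2.3% fell. Overload alone gave 0 calls among the members (0% of genes in both directions), 0 members at an unadjusted p under 0.05, and 0 by DESeq2 or limma-voom. Adding overload to the ligature also gave 0 member calls (background 0.0248% higher and 0.0596% lower), with 1 member at an unadjusted p under 0.05 and 1 call by DESeq2. The interaction gave 0 calls among all genes, with 1 member at an unadjusted p under 0.05 and 0 by the other tools.

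Irf1 had the lowest adjusted p of any member in gingiva. Irf1 CPM was 15.01, 20.2, 19.6 and 26.1 in Co, 40.4, 43.1, 27.8 and 21.02 in Li, 16.7, 19.8, 12.6 and 21.7 in Tra and 36.4, 29.7, 44.8 and 48.5 in LiTra. All LiTra libraries lay above all Co and all Tra libraries, and Li 1 and Li 2 lay within the LiTra range. Irf1 rose by 0.98 ± 0.24 against Co (edgeR adjusted p = 0.0101) and by 1.17 ± 0.24 against Tra (adjusted p = 0.00512), and kept both calls in each of 16 fits without 1 library and in all 7 other alternatives. Stat2, Irf9 and Irf7 were not called. Irf7 had 3.30, 7.88, 6.23 and 13.2 CPM in Co, 5.52, 12.6, 4.10 and 12.1 in Li, 3.23, 5.04, 2.87 and 24.9 in Tra and 7.40, 7.73, 12.6 and 8.25 in LiTra. Its highest library was Tra 4, and all groups overlapped.

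Trim30a, a TRIM family protein of the mouse that is induced in macrophages, had the largest increase. Trim30a CPM was 4.30, 10.1, 6.93 and 7.57 in Co, 23.04, 32.2, 7.25 and 8.95 in Li, 6.87, 10.8, 2.28 and 5.58 in Tra and 30.8, 16.8, 22.9 and 29.2 in LiTra. LiTra lay above Co and Tra without overlap, and Li was split between Li 1 and Li 2, at LiTra levels, and Li 3 and Li 4, at Co levels. Trim30a rose by 1.79 ± 0.49 against Co (edgeR adjusted p = 0.0167) and by 1.96 ± 0.49 against Tra (adjusted p = 0.0131). The first call was lost without Co 1 (adjusted p = 0.0541). Parp14, an ADP-ribosyltransferase, had 15.1, 16.9, 21.6 and 27.1 CPM in Co, 27.0, 37.7, 18.8 and 24.9 in Li, 15.05, 22.0, 10.7 and 21.5 in Tra and 27.8, 28.6, 46.2 and 38.2 in LiTra, where LiTra lay just above Co. Its increase was 0.80 ± 0.27 against Co (adjusted p = 0.0415), lost in 5 of 16 fits without 1 library (Co 1, Co 2, Co 3, LiTra 3 or LiTra 4), and 1.02 ± 0.27 against Tra (adjusted p = 0.0163), lost in none.

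Oas2 was the 1 of 8 IFIT and OAS genes called in gingiva. Oas2 CPM was 2.89, 3.26, 3.38 and 6.08 in Co, 7.89, 14.3, 3.83 and 4.22 in Li, 2.61, 5.24, 3.80 and 10.7 in Tra and 11.9, 8.88, 16.1 and 10.7 in LiTra. LiTra lay above Co, while Tra 4 and Li 2 reached the LiTra range. Oas2 rose by 1.61 ± 0.46 (edgeR adjusted p = 0.0216), a call lost without Co 1, Co 2, Co 3 or LiTra 3. Oas3 CPM was 0.17, 1.25, 1.654 and 2.99 in Co, 5.07, 7.87, 0.61 and 2.02 in Li, 0.862, 1.44, 0.369 and 4.57 in Tra and 4.66, 1.95, 6.32 and 3.99 in LiTra, and its difference of 1.48 ± 0.85 had an adjusted p of 0.235. In Co 1 its value rested on 7 counts. Ifit2 had 34 counts in gingiva Li 2, against 400 to 853 in the other 3 Li libraries, while Li 2 was high in most other members.

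Rsad2 was the member that rose with the ligature alone in gingiva. Rsad2 CPM was 1.53, 1.653, 2.06 and 3.62 in Co, 6.72, 7.68, 2.32 and 9.47 in Li, 2.14, 3.43, 2.39 and 4.76 in Tra and 4.56, 3.06, 8.50 and 4.63 in LiTra. Li 1, Li 2 and Li 4 lay above all Co libraries, and Li 3 lay among them. The increase was 1.56 ± 0.43 (edgeR adjusted p = 0.0416), lost in 9 of 16 fits that left out 1 library (Co 1, Co 2, Co 3, Li 1, Li 2, Li 4, LiTra 1, LiTra 4 or Tra 2) and not called by limma-voom (adjusted p = 0.0946). LiTra against Co gave 1.23 ± 0.43, adjusted p = 0.0528. Its neighbour Cmpk2 was not called in Li (0.84 ± 0.32, adjusted p = 0.117) or LiTra (-0.14 ± 0.32, adjusted p = 0.804).

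Isg15 and Usp18 were not called in any gingiva comparison. Isg15 CPM was 2.70, 2.37, 5.49 and 11.6 in Co, 4.27, 8.02, 2.39 and 7.31 in Li, 1.92, 7.497, 1.26 and 40.2 in Tra and 4.31, 3.13, 8.36 and 4.63 in LiTra. Tra 4 was the highest library, above every other by a wide margin, and Tra 3 the lowest. Usp18 CPM was 2.33, 1.13, 2.83 and 5.08 in Co, 1.52, 3.91, 1.49 and 5.22 in Li, 1.99, 1.72, 1.37 and 10.4 in Tra and 1.72, 2.32, 4.62 and 2.498 in LiTra, again highest in Tra 4. The sensors were not called either, with Ddx58 (0.59 ± 0.22, adjusted p = 0.0636) nearest to the threshold. Ddx58 CPM was 15.5, 21.8, 19.1 and 19.9 in Co and 23.8, 25.0, 37.6 and 27.9 in LiTra, without overlap.

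The chemokines and some of the GTPases were high in a few libraries in gingiva, and not throughout a group. Cxcl9 CPM was 1.60, 1.41, 1.51 and 59.5 in Co, 0.699, 3.01, 0.244 and 1.36 in Li, 0.591, 0.129, 0.152 and 16.1 in Tra and 0.38, 0.667, 50.6 and 3.48 in LiTra. Co 4, Tra 4 and LiTra 3 stood far above their groups, and the rest lay between 0.129 and 3.48 CPM. Cxcl10 CPM was 0.898, 1.75, 0.791 and 17.6 in Co, 2.097, 4.58, 1.39 and 7.27 in Li, 0.566, 0.862, 0.282 and 6.83 in Tra and 1.90, 1.01, 12.5 and 7.33 in LiTra, high in the same 3 libraries and in Li 4 and LiTra 4. Gbp2, a guanylate-binding protein, had 12.9, 10.3, 13.1 and 35.1 CPM in Co, 15.8, 24.9, 11.4 and 17.2 in Li, 9.33, 14.4, 6.14 and 23.7 in Tra and 16.7, 15.3, 60.3 and 22.9 in LiTra. None of the 5 GTPases was called, and their differences between LiTra and Co lay between 0.17 (Iigp1) and 0.69 (Gbp2).

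**Figure D2:**
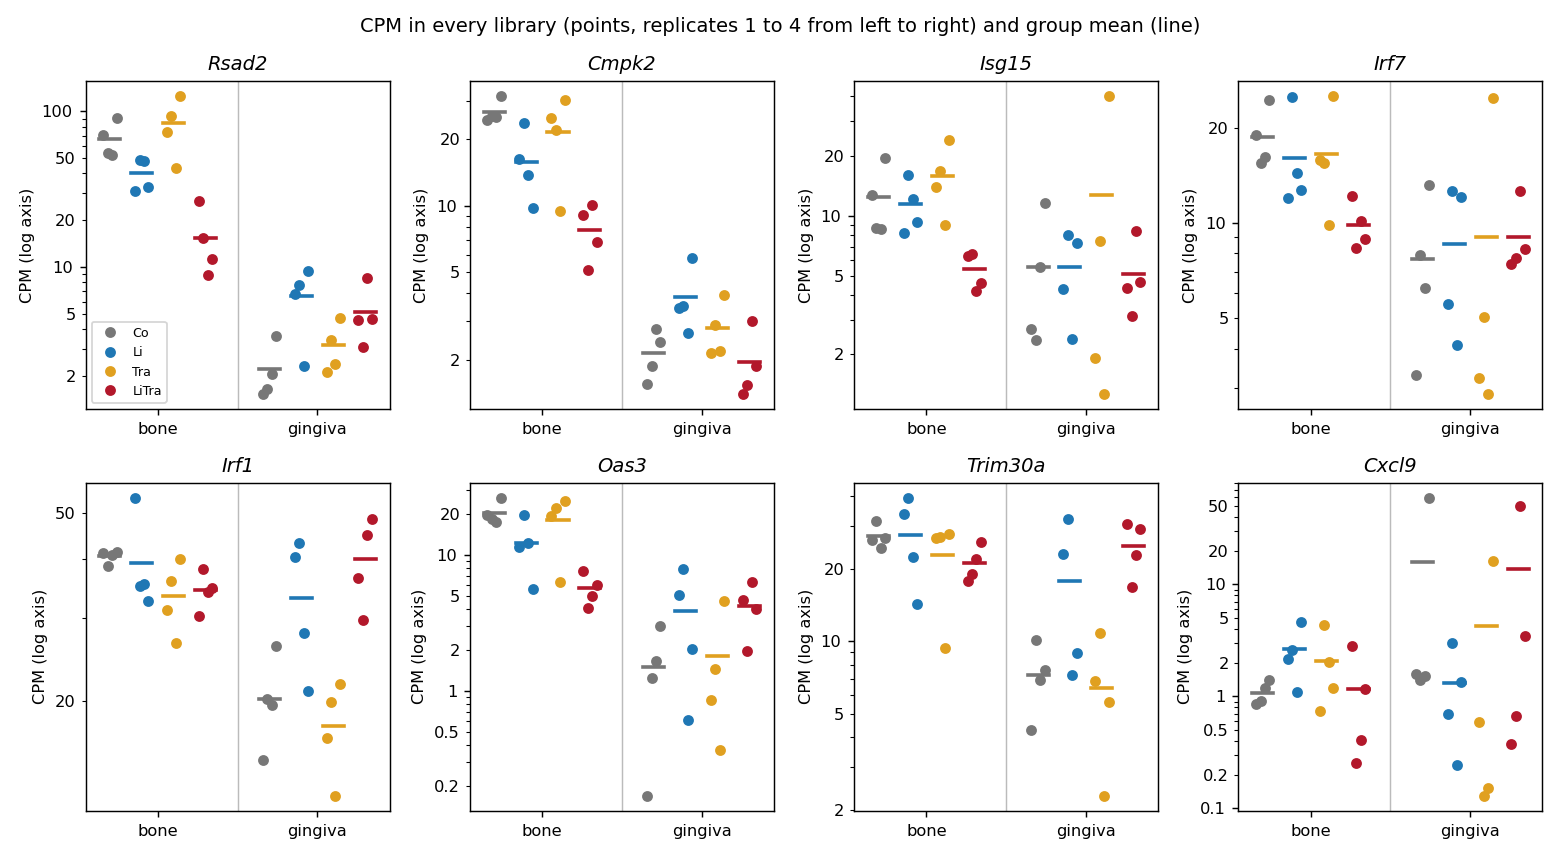
CPM (log axis) of 8 members in every library of bone and gingiva, with points coloured by group and a line at each group mean. The means of Rsad2, Cmpk2 and Oas3 are lowest in LiTra among the bone groups, those of Irf1 and Trim30a are highest in LiTra among the gingiva groups, and Cxcl9 in gingiva is high in single libraries of Co, Tra and LiTra.

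Cell type markers also moved in gingiva with the combined treatment. Of 8 monocyte and macrophage markers 6 rose, from a summed 127 to 161 CPM in Co to 353 to 439 CPM in LiTra. All 4 osteoclast markers rose, from 155 to 228 CPM to 800 to 1280 CPM, and all 4 endothelial markers, from 100.05 to 123 CPM to 225 to 298 CPM. Of 6 neutrophil markers 3 rose, from 138 to 831 CPM to 2041 to 8900 CPM. Of 4 fibroblast markers 2 rose, from 1829 to 3437 CPM to 4068 to 5951 CPM. The summed oral epithelial keratins lay lower in every LiTra library, at 67790.3 to 86414 CPM in Co and 51764 to 65407 CPM in LiTra, and of these 6 genes 2 fell and 1 rose. Of 5 osteoblast and osteocyte markers 3 fell and 1 rose (195 to 390 CPM in Co and 204 to 338 CPM in LiTra). Of 4 markers of plasmacytoid dendritic cells 1 fell (14.2 to 27.9 CPM and 7.11 to 11.9 CPM), and 0 of 9 tested T and NK cell markers were called. No marker of the first 6 lists was at 0 in any Co or LiTra gingiva library. Their part in the increases of Irf1, Oas2, Parp14 and Trim30a was not tested.

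Receptor chains and other genes of the pathway also rose in LiTra gingiva, where 11.4% of all genes were called higher and 11.5% lower. Of 6 receptor chains 5 rose in LiTra, among them Ifnar1 (0.87 ± 0.14), Ifngr2 (0.86 ± 0.15), Ifngr1 (1.02 ± 0.19) and Ifnar2 (1.01 ± 0.20), and 3 rose in Li, where 5.19% of all genes were called higher. Of the 10 relay genes Jak1 (0.65 ± 0.11), Socs3 (2.32 ± 0.41), Jak2 (0.78 ± 0.20) and Irf3 (0.23 ± 0.07) rose and 0 fell. Of the 12 sensing genes 5 rose and 1 fell, with Tmem173, which encodes the DNA sensing adaptor STING (2.30 ± 0.39), Myd88 (0.59 ± 0.14), Tlr3 (0.68 ± 0.17) and Ikbke (0.45 ± 0.12) of lowest p. Of 32 other interferon-stimulated genes 7 rose and 0 fell, led by Ifitm3 (1.50 ± 0.26), Cd274 (2.62 ± 0.55), which encodes the checkpoint ligand PD-L1, Lgals9 (1.29 ± 0.28) and Epsti1 (1.44 ± 0.33). Of 11 class I presentation genes 0 were called by edgeR, with 3 at an unadjusted p under 0.05, and Psmb8 had the lowest adjusted p (0.0747).

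The members varied from library to library within the gingiva groups. The within-group standard deviation had a median of 0.74 on the log2 scale over the members and 0.328 over all genes, against 0.476 and 0.412 in bone. In gingiva 33 of 36 members were highest in Tra 4 among the Tra libraries, 33 in LiTra 3 among the LiTra libraries, 31 in Co 4 among the Co libraries and 24 in Li 2 among the Li libraries. The lowest libraries were Co 1 for 27 members, Li 3 for 26, Tra 3 for 25 and LiTra 1 for 20. The mean of the centred log2 values over the 36 members spanned -1.15 to 1.06 within Tra, -0.82 to 0.77 within Co, -0.57 to 0.52 within Li and -0.08 to 1.16 within LiTra. All 4 groups overlapped on this scale. In bone LiTra spanned -0.60 to -0.10 and overlapped each of the others only at its edge, since Co went from -0.12 to 0.37, Li from -0.12 to 0.71 and Tra from -0.17 to 0.50.

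The library with the highest value of all 16 differed between members. Tra 4 held the highest value of all 16 libraries for Isg15 (40.2 CPM), Usp18 (10.4 CPM), Oas1a (19.4 CPM), Irf7 (24.9 CPM) and Ifi27l2a (68.4 CPM). Co 4 held the highest value for Cxcl9 (59.5 CPM) and Cxcl10 (17.6 CPM), and LiTra 3 for Gbp2 (60.3 CPM) and Iigp1 (27.2 CPM). For Cxcl9, Tra 4 reached 16.1 CPM, below both of the latter, and for Isg15, Co 4 and LiTra 3 reached 11.6 and 8.36 CPM. These genes were named after their values were seen.

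**Figure D3:**
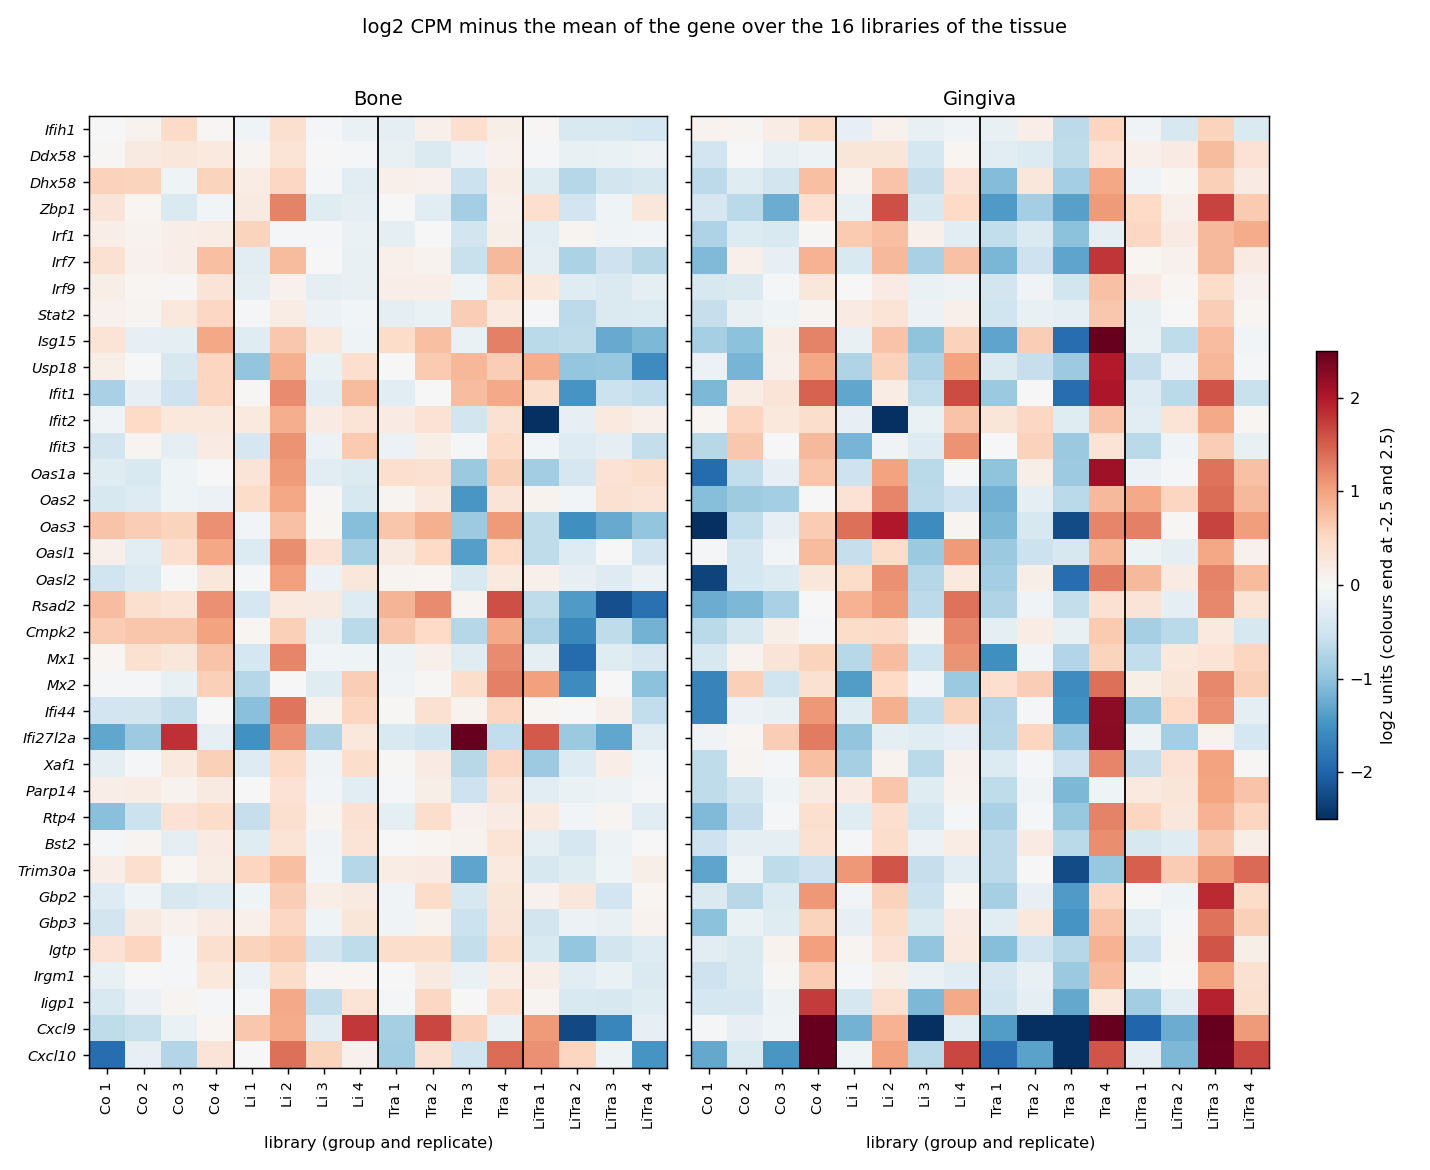
Heat map of log2 CPM (prior count 2) minus the mean of the gene over the 16 libraries of its tissue, with the 36 members as rows and libraries as columns, and black lines between groups. In gingiva some columns are red (Co 4, Tra 4, LiTra 3) or blue (Co 1, Tra 3) for most members, although Irf1, Parp14 and Trim30a lie below their mean in Tra 4. In bone the clearest block is the blue of Rsad2, Cmpk2, Oas3 and Isg15 in LiTra.

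Within groups, most members rose and fell together across gingiva libraries. The deviation of a member from its group mean was correlated with the mean deviation of the other 35 members at r over 0.7 in 31 of 36 members in gingiva, with a median r of 0.863 over 16 libraries, while 0.512% of the other 20107 genes passed 0.7. In bone 9 of 36 members passed, with a median of 0.617, against 0.142% of the other genes. These are descriptions, since all genes of a library share its depth and composition. The highest in gingiva were Bst2 (tetherin, which holds virus particles on the cell surface, r = 0.959), Oas1a (0.948) and Irf7 (0.937), and in bone Irgm1 (0.907), Oasl2 (0.901) and Irf7 (0.888). Ifit2 did not follow the rest in gingiva (0.0202) or bone (-0.122), and Trim30a, which rose with treatment, followed weakly in gingiva (0.346).

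Some genes outside the list varied with them. Among the most alike in gingiva were Rnf213 (r = 0.934), Parp9 (0.924), Tap1 (0.905) and Zc3hav1 (0.904), over 16 libraries. The most alike in bone were Tgtp2 (0.862), Oas1g (0.839), Alkbh3os1 (0.837), Hist1h2bk (0.832) and Oas1c (0.802). Of 32 other interferon-stimulated genes 17 passed 0.7 in gingiva and 4 in bone. Oas1g and Tgtp2 belong to families with near-identical copies, as do Oas1a, Ifit3 and Trim30a among the members, so that reads may be split between copies.

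Libraries of the same group and number deviated together in the 2 tissues. Over 16 pairs of bone and gingiva libraries the mean deviation of the 36 members had a Pearson r of 0.683. The Spearman rho was 0.765. Without Li 2 and Tra 4, the pairs farthest from the median in bone alone, r was 0.601. Pairs far out in gingiva, such as Tra 3 (-0.905) and Co 4 (0.9), stayed in this check. Pairs Li 2, Co 4 and Tra 4 were high in both tissues, and Tra 3, Co 1 and Li 3 low in both, while LiTra 1 was high in bone and low in gingiva. Member by member, 17 of 36 had an r over 0.5 across the pairs, with a median of 0.469, where 7.8% of 19189 other genes passed 0.5 and their median was 0.0659. Xaf1 (0.874), Gbp3 (0.819) and Trim30a (0.806) were highest, and Ifi27l2a (-0.202), Cxcl9 (-0.185) and Ifih1 (-0.026) lowest, with Rsad2 at 0.0153. Nothing in the labels states that both libraries of a number came from 1 animal, so no test was made of this likeness.

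**Figure D4:**
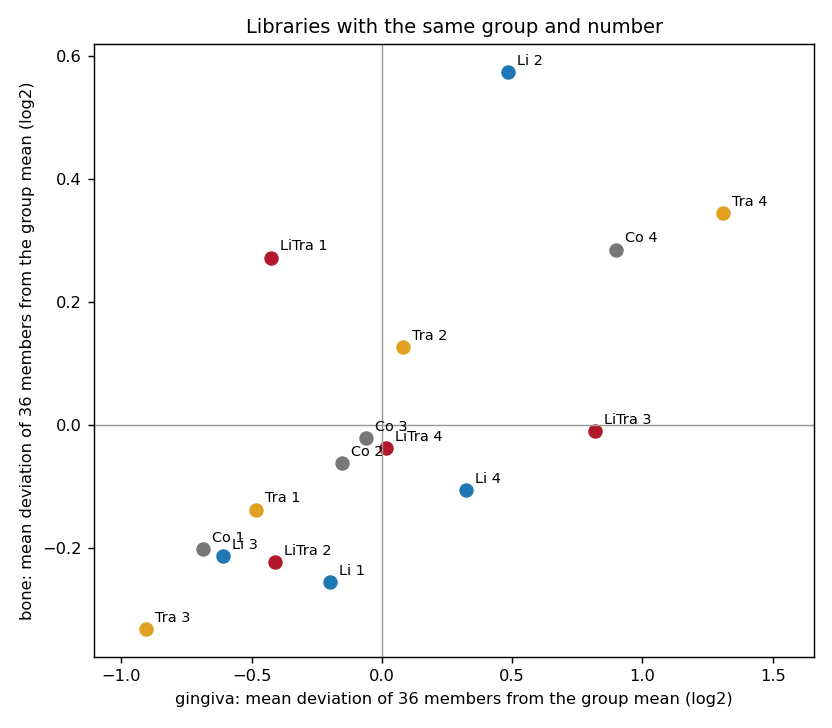
Mean deviation of the 36 members from their group mean (log2) in gingiva (horizontal axis) and bone (vertical axis) for each of the 16 pairs of libraries with the same group and number, coloured by group. Li 2, Co 4 and Tra 4 lie at the upper right and Tra 3 at the lower left; LiTra 1 lies at the upper left.

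The untreated tissues differed in a part of the list. In a fit of all 32 libraries, 12 of 36 members were higher in untreated bone than in untreated gingiva and 1 was lower, where 27.2% and 26.4% of 22559 genes were called in these directions. The fit takes the 32 libraries as independent, although those of the same group and number deviated together. Among the members higher in bone, the largest differences were those of Rsad2, Oas3 and Cmpk2. Rsad2 was at 66.8 ± 18.2 CPM (SD, n = 4) in bone and 2.22 ± 0.965 CPM in gingiva, a difference of 4.91 ± 0.47, adjusted p = 2.55e-09 (edgeR). Cmpk2 was at 26.5 ± 3.07 and 2.16 ± 0.555 CPM (3.62 ± 0.36, adjusted p = 4.01e-09), and Oas3 at 20.3 ± 4.03 and 1.52 ± 1.17 CPM (3.74 ± 0.76, adjusted p = 0.000158). The other 9 that were higher in bone were Trim30a (1.91 ± 0.45), Igtp (1.48 ± 0.45), Dhx58 (1.47 ± 0.37), Irf7 (1.28 ± 0.52), Stat2 (1.19 ± 0.22), Parp14 (1.04 ± 0.23), Irf1 (0.99 ± 0.21), Bst2 (0.93 ± 0.30) and Ddx58 (0.84 ± 0.18). Irf7 lost its call in 5 of 24 fits without 1 library (bone Co 1 or Co 4, gingiva Co 1, Co 2 or Co 3). Cxcl9 was called lower in bone (-3.90 ± 1.54, adjusted p = 0.0349), which rested on gingiva Co 4: without that library the difference was -0.50 (adjusted p = 0.788). The call was also lost when any 1 of the bone Co libraries was left out (edgeR adjusted p from 0.0644 to 0.0774). With a term for each pair of libraries of the same group and number, chosen after seeing the data, 16 members were called higher in bone and 0 lower. Cxcl9 then lost its call (-1.58 ± 1.41, adjusted p = 0.372), and Irf9, Isg15, Oas2 and Oasl2 gained one.

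The tissues responded to the combined treatment in different ways in 7 members. The difference between the LiTra effects, bone minus gingiva, was negative and called in Rsad2 (-3.33 ± 0.59, adjusted p = 0.00119), Oas3 (-3.31 ± 0.99, adjusted p = 0.027), Trim30a (-2.14 ± 0.62, adjusted p = 0.0226), Cmpk2 (-1.62 ± 0.47, adjusted p = 0.0226), Irf1 (-1.20 ± 0.30, adjusted p = 0.0101), Parp14 (-1.10 ± 0.33, adjusted p = 0.0274) and Ddx58 (-0.89 ± 0.25, adjusted p = 0.0195), all by edgeR. Of all genes 6.68% were called lower and 5.59% higher in this test. The median over the 36 was -0.85 against 0.03 over all genes, and 31 of 36 were negative. Rsad2, Oas3 and Cmpk2 had fallen in bone, Irf1, Parp14 and Trim30a had risen in gingiva, and Ddx58 was called in neither tissue alone. Rsad2 and Irf1 kept their call in all 24 fits that left out 1 library. The other 5 lost it without gingiva Co 1, and all of them but Trim30a also without gingiva LiTra 3. Further losses were those of Cmpk2 without bone LiTra 2 and of Oas3 without bone Co 4, bone LiTra 2 or gingiva Co 2. Parp14 also lost its call without bone LiTra 1, gingiva Co 2 or gingiva LiTra 4. With library totals 1 of the 7, Rsad2, was called. With the term for each pair of libraries all 7 kept their call and Stat2 gained one (-0.89 ± 0.25, adjusted p = 0.0351). For the ligature alone Rsad2 was the 1 member whose effect differed, by -2.30 ± 0.58, adjusted p = 0.0358, where 0.683% of all genes were called lower and 1.36% higher; the call was lost in 11 of 24 fits without 1 library (bone Co 4 or any bone Li, gingiva Co 1, Co 2, Co 3, Li 1, Li 2 or Li 4) and with the term for each pair (-2.24 ± 0.57, adjusted p = 0.061).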

How the data were processed

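RNA-seq of bone and gingiva gave 32 libraries in 8 groups of 4. The authors deposited 1 table of expected counts per gene (estimated counts, here whole numbers) for each tissue. Per the submitters' processing notes, Trimmomatic 0.39, FastQC 0.11.9, HISAT2 2.2.1, StringTie 2.1.7, DESeq2 1.32.0 and GRCm39 were used; whether counting used strand is not given in the sources used here. Columns marked CR were read as the composite resin (Tra) group. The members and lists were chosen with earlier results of these data known.

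Counts were filtered (filterByExpr, minimum count 10, minimum total 15), scaled by TMM and tested two-sided with edgeR 4.0.16 in R 4.3.3 (quasi-likelihood, Benjamini-Hochberg over all genes, threshold 0.05), using all 16 libraries of a tissue. Tissue comparisons used a fit of all 32 libraries, and their CPM values are on that fit's scale. Differences are log2 ± SE with n = 4 per group. The SE of an edgeR difference was derived as its absolute value divided by the square root of the quasi-likelihood F statistic. It therefore draws on the spread shared by all groups of the fit. Log2 CPM used a prior count of 2. The scripts were tested on simulated data.

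CPM per library was given for up to 3 members per role and tissue, those of smallest p, and for Isg15, Irf7, Irf1, Cxcl9 and Cxcl10; up to 4 genes per pathway list were named, those of smallest p. Other members and genes named were chosen after their values were seen. The likeness of 1 gene outside the members is not reported here. Marker lists covered 13 cell types or tissues. Alternatives were DESeq2 1.42.0 and its size factors, library totals, no filter, limma 3.58.1 (voom with quality weights), a replicate block, for the tissue comparisons also a term for each bone and gingiva pair of the same group and number (chosen after seeing the data), the compared groups alone, leaving out the 3 bone libraries whose 10 most abundant genes took the largest shares of counts, and leaving out each library. Promoters came from RefSeq tables on GRCm38.p6, a build other than that of the counts, and were matched by symbol.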

Additional observations from a re-analysis of the deposited data

Results flagged for a closer look

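In 39 of 288 groups of 4 libraries (13.5%), 1 library lay apart from the other 3. Its gap to the nearest of them, divided by the range, was above Dixon's 95% critical value. About 5% would pass if the values were normally distributed, which CPM need not be. The share over all genes was not computed. The members of 1 library are not independent, so these counts are descriptions.

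In gingiva, Tra 4 was apart and highest for 9 members: Isg15 (40.2 CPM), Irf7 (24.9 CPM), Oas1a (19.4 CPM), Cxcl9 (16.1 CPM), Xaf1 (13.7 CPM), Ifi44 (10.9 CPM), Usp18 (10.4 CPM), Cxcl10 (6.83 CPM) and Zbp1 (6.24 CPM). Co 4 was highest for 6: Cxcl9 (59.5 CPM), Gbp2 (35.1 CPM), Iigp1 (24.3 CPM), Cxcl10 (17.6 CPM), Dhx58 (6.48 CPM) and Oas2 (6.08 CPM). LiTra 3 was highest for 4: Gbp2 (60.3 CPM), Cxcl9 (50.6 CPM), Ifit1 (19.2 CPM) and Irf7 (12.6 CPM). Li 1 was lowest for Ifi27l2a (7.12 CPM).

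In bone, LiTra 1 was highest for 5 members: Ifi27l2a (50.6 CPM), Irf9 (43.5 CPM), Ifih1 (16.9 CPM), Iigp1 (9.83 CPM) and Usp18 (7.13 CPM). Co 3 was highest for Ifi27l2a (61.4 CPM) and Ifih1 (22.9 CPM) and lowest for Dhx58 (7.03 CPM). Tra 3 was highest for Ifi27l2a (260.4 CPM) and lowest for Igtp (11.7 CPM), Trim30a (9.41 CPM) and Dhx58 (5.23 CPM). Li 2 was highest for Irf9 (38.9 CPM), Ifit2 (23.8 CPM) and Mx1 (7.33 CPM), Li 1 for Irf1 (53.8 CPM), and Co 4 for Cmpk2 (31.5 CPM) and Mx2 (2.22 CPM). LiTra 2 was lowest for Mx1 (0.801 CPM). Nasal gland transcripts took 49.4% of the counts in LiTra 1 and 46.4% in Co 3, and their part in these values was not tested.

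The effect of treatment differed between the tissues, by the test of the difference itself, in 8 cases. For the ligature, bone minus gingiva, Rsad2 had -2.30 on the log2 scale. For the combined treatment the values were -3.33 for Rsad2, -3.31 for Oas3, -2.14 for Trim30a, -1.62 for Cmpk2, -1.20 for Irf1, -1.10 for Parp14 and -0.89 for Ddx58.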

How the results depend on the processing

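Of 705 results for single genes, none changed direction among those called, 17297 alternative values stayed on their side of the threshold, 613 lost the call and 87 gained it. These results cover the members in every comparison, and pathway genes only where the main fit called them. Such pathway genes could lose a call but not gain one, so losses and gains cannot be weighed against each other. Counts of members called moved as follows, and the cause was not tested. With library totals the count fell to 0 in bone for LiTra against Co and LiTra against Tra, to 0 for the tissue difference of Li and to 1 for that of LiTra. This scaling moved the median of all genes from -0.02 to 0.13 in bone Li against Co, from 0.00 to -0.10 in bone LiTra against Li, from -0.04 to 0.06 in bone LiTra against Tra and from -0.01 to 0.13 in gingiva LiTra against Tra. Limma-voom gave 14 in bone for LiTra against Co, 9 against Tra, 0 in gingiva for Li against Co and 2 for the tissue difference of Li. DESeq2 gave 1 in bone and 1 in gingiva for LiTra against Li, 3 in gingiva for Li against Co and 2 for the tissue difference of Li. Without a filter the last 2 counts were 0 and 0. With the compared groups alone, bone LiTra against Tra gave 2 and gingiva Li against Co 0. Without the 3 bone libraries Co 3, Tra 3 and LiTra 1, LiTra against Tra gave 8 and the tissue difference of Li 2. The replicate block gave 2 in bone for LiTra against Tra, 5 for LiTra against Co and 0 for the tissue difference of Li. A replicate block of group and number across the tissues, added after seeing the data, gave 0 for the tissue difference of Li, 8 for that of LiTra and 16 for the untreated tissues. Same-numbered libraries of different groups within a tissue had a median r of -0.0849 in bone and 0.0109 in gingiva. For pairs of other numbers it was 0.0263 and -0.0083. Of 24 same-numbered pairs, 5 in bone and 4 in gingiva correlated above 0.1, at most at 0.545 and 0.153. The share of other pairs above 0.1 is not given. Of 16 libraries, 4 in bone and 1 in gingiva correlated best with their own number. Whether the numbers mark a pairing was not tested. Leaving out each library gave 4 to 9 in bone for LiTra against Co and 1 to 6 against Tra, with 9 and 6 without LiTra 1, and 4 without Co 4, LiTra 3 or LiTra 4, and 1 without LiTra 4 or Tra 4. In gingiva it gave 0 to 2 for Li against Co, 1 to 6 for LiTra against Co (1 without Co 1, 6 without Li 3) and 3 to 8 against Tra (8 without Tra 4). The tissue differences ranged from 0 to 2 for Li and from 2 to 9 for LiTra (2 without gingiva Co 1, 9 without gingiva Co 4), and the untreated tissues from 11 to 14. Counts of 0 for bone Li against Co, both Tra against Co, both LiTra against Li and both interactions remained 0 in every fit that left out 1 library. With 4 libraries a group and within-group spreads of the members larger than those of all genes in gingiva, differences that were not called there may be as large as their intervals allow.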

Other observations

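Pathway genes outside the members were also compared between LiTra and Tra, groups that differ by the ligature on top of overload. In gingiva 5 of 6 receptor chains rose, as did 3 of 10 relay genes, 4 of 12 sensing genes, with 1 that fell, and 9 of 32 other interferon-stimulated genes, while 0 of 11 class I presentation genes were called. In bone 1 of 6 receptor chains and 1 of 10 relay genes rose, 1 of 12 sensing genes fell, 2 of 32 other interferon-stimulated genes rose and 4 fell, and 1 of 11 class I presentation genes fell. The background is that of all genes in these comparisons, 9.36% higher and 9.44% lower in gingiva and 3.07% higher and 2.49% lower in bone.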
